A study of Medicago truncatula with 24 samples.

Results

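H3K27me3 was compared between embryos of seeds produced at 20°C and at 26°C, at the stages S1 and S2, in *Medicago truncatula*, a model legume. The members are all intervals of the 4 H3K27me3 peak lists of these stages on chromosomes 1 to 8, in total 17286 of the 38053 peaks in the 12 lists of the series. They comprise 4648 peaks for 20°C and 5611 for 26°C at S1, and 1793 for 20°C and 5234 for 26°C at S2. All plants were of the line A17 and grew at 20°C by day and 18°C by night until flowering, when one part of them was moved to 26°C by day and 24°C by night. S1 precedes and S2 follows the acquisition of desiccation tolerance, the ability of a seed to survive drying. The embryos of S1 were collected 17 days after pollination at 20°C and 14 days at 26°C, and those of S2 26 and 17 days after pollination. The temperatures are therefore compared at equal stage and not at equal age, and an effect of age cannot be told apart from one of temperature. Many embryos were pooled for each library, and there was 1 library made with the antibody (IP) and 1 INPUT library for each condition. No difference below has a replicate check, and no test between the temperatures was made. The values of S1 and S2 are given side by side instead.

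H3K27me3 is histone H3 with 3 methyl groups on lysine 27. In plants and animals it is deposited by Polycomb repressive complex 2 and is known from silent genes, among them developmental regulators that are switched off in a given tissue. It often forms domains over whole genes rather than sharp points, which is why such peaks are called in a broad mode. In the embryo of *Arabidopsis*, another plant, Polycomb complexes are needed to switch the seed maturation programme off when the seedling develops.

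The library with the fewest peaks, S2 at 20°C, was also the one with the most reads among these IP libraries by the published read numbers, and the lists themselves do not state a depth. The peaks covered 1.79% of the chromosomes at S1 at 20°C, 1.90% at S1 at 26°C, 1.01% at S2 at 20°C and 1.88% at S2 at 26°C. Most of them were short, with 61.6% to 76.0% under 1 kb in the 4 lists, whereas the 219 to 439 peaks over 5 kb in each list made up 52.1% to 66.1% of the covered bases. The median fold enrichment of IP over INPUT, as the peak caller of the authors wrote it, was 3.58 at S1 at 20°C, 3.91 at S1 at 26°C, 2.56 at S2 at 20°C and 3.90 at S2 at 26°C. The list of S2 at 20°C thus stood below the other 3 in its number of peaks, its covered length and its enrichment. Results of S1 do not rest on it, and they are given beside those of S2 throughout. No DNA sequence of this assembly was at hand, so peaks are given by position.

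To describe which positions were shared, peaks of both temperatures that overlapped by at least 1 bp were joined into places. A place was shared when it held peaks of both temperatures and was otherwise found at one temperature only. At S1 there were 9577 places, of which 559 were shared, 4017 were found at 20°C only and 5001 at 26°C only. The shared places were 5.84% of all (exact 95% binomial interval 5.38% to 6.33%, for counting error only). At S2 there were 6460 places, of which 461 were shared, 1280 were found at 20°C only and 4719 at 26°C only, and the shared ones were 7.14% (6.52% to 7.79%). For comparison, of all windows of 1 kb on these chromosomes, 0.609% held peaks of both temperatures at S1, 2.26% a peak of 20°C only and 2.6% a peak of 26°C only. At S2 these shares were 0.642%, 0.791% and 2.45%. Most places of either stage were therefore seen at a single temperature, and those of 26°C outnumbered those of 20°C, by 0.32 on the log2 scale at S1 and by 1.88 at S2. These ratios follow the number of peaks in each list. The longer list of each stage was then cut to its peaks of lowest p-value, to 4648 peaks at S1 and 1793 at S2. The log2 ratios became 0.013 and 0.015, which equal numbers of peaks fix near these values in advance. Of the places, 5.71% and 5.30% were then shared. At a fold enrichment of at least 3, which removes most peaks of S2 at 20°C, 5.42% of the places of S1 and 2.61% of those of S2 were shared.

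**Figure D1:**
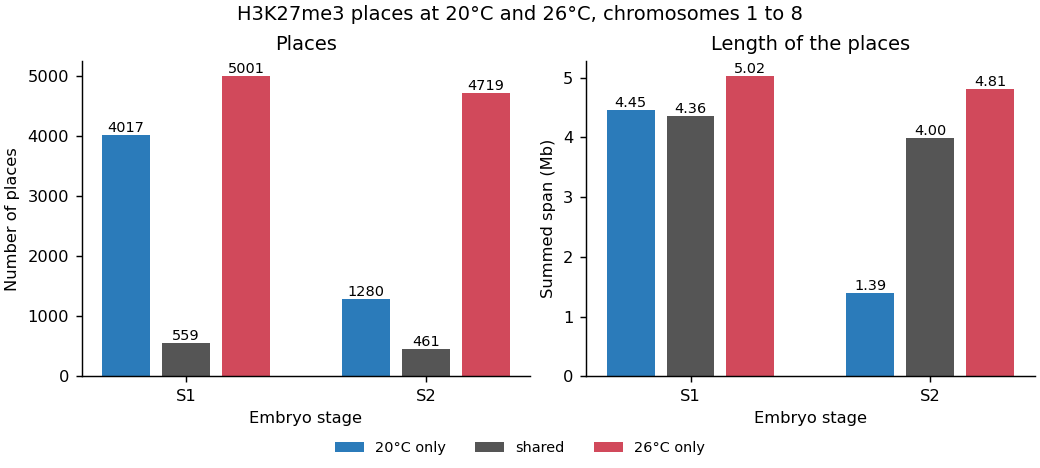
The bars give the number of H3K27me3 places (left) and their summed span in Mb (right) at S1 and S2, for places found at 20°C only (blue), at both temperatures (grey) and at 26°C only (red), with 1 library per condition and no error bars. The 559 and 461 shared places are few in number but span 4.36 and 4.00 Mb.

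Although few, the shared places held a large part of the marked length. Their median span was 5587 bp at S1 and 5864 bp at S2, against 397 and 478 bp for places of 20°C only and 462 and 432 bp for places of 26°C only. Over 5 kb were 53.8% of the shared places at each stage, against 3.52% to 5.33% of the others. Counted in bases, 24.4% of the marked length of 20°C at S1 lay under a peak of 26°C, which itself covered 1.90% of the chromosomes. At S2, 49.1% of the marked length of 20°C lay under peaks of 26°C, and 26.5% of that of 26°C lay under peaks of 20°C. The overlap rose with peak length in each of the 4 lists. Among peaks under 500 bp, 6.09% of those of 20°C and 4.47% of those of 26°C at S1 overlapped the other temperature, and 12.7% and 2.74% at S2. Among peaks of 5 kb or more these shares were 51.3% and 54.2% at S1, and 78.5% and 49.9% at S2. Longer peaks also meet another list more often by their length alone. The bases they held were nevertheless shared more often as well, at 32.9% for the 20°C peaks of at least 5 kb at S1 against 5.15% for those under 500 bp.

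**Figure D2:**
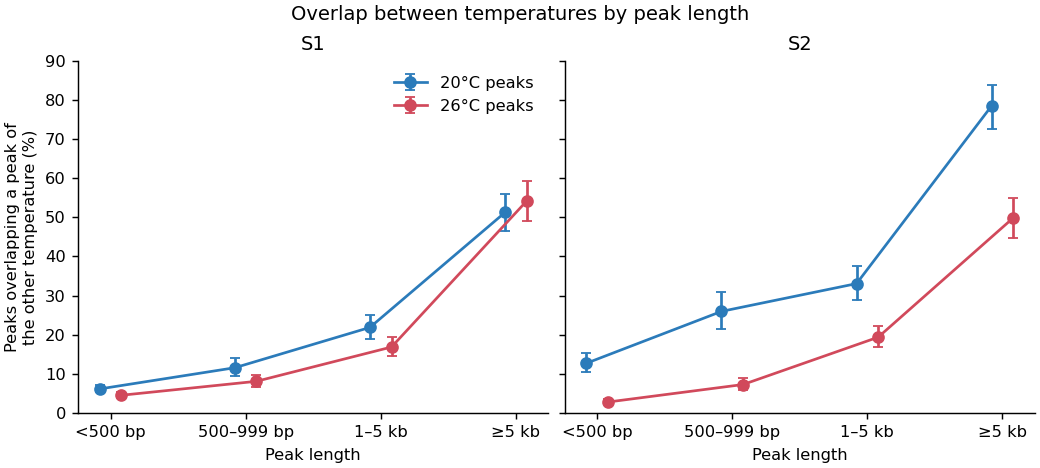
The points give the percent of peaks that overlap a peak of the other temperature, by peak length, at S1 (left) and S2 (right), for peaks of 20°C (blue) and of 26°C (red), with exact 95% binomial intervals for counting error. At S2 the longest class reaches 78.5% for 20°C and 49.9% for 26°C.

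Fold enrichment did not separate shared from single peaks in the same way. At S1 the median was 3.61 for the 20°C peaks that overlapped 26°C and 3.58 for those that did not, and for 26°C the values were 3.79 and 3.92. At S2 they were 2.64 and 2.54 at 20°C, and 3.57 and 3.91 at 26°C. Few peaks of one temperature only lay next to a peak of the other. At S1, 3.36% of those of 20°C and 2.68% of those of 26°C had a peak of the other temperature within 1 kb, and 1003 of 4017 and 1006 of 5001 had one within 10 kb. At S2 these shares were 5.63% and 1.46% within 1 kb, and 36.4% and 9.96% within 10 kb. Such shares rise with the number of peaks in the other list. For peaks of 20°C that list held 5611 peaks at S1 and 5234 at S2, and for peaks of 26°C 4648 and 1793. The share for random positions was not computed, so closeness beyond it was not tested. Over the shared places of S1, the median enrichment was similar at both temperatures, at 3.74 for 20°C and 3.92 for 26°C. Of these 559 places 291 were higher at 26°C, with a median log2 ratio of 0.04 (26°C over 20°C, quartiles −0.30 and 0.41). Place by place the temperatures were less alike, with a Spearman rank correlation of 0.33 at S1 and 0.33 at S2. At S2, 406 of 461 shared places were higher at 26°C, with a median log2 ratio of 0.45, and the medians of the whole lists differed in the same direction (2.56 and 3.90).

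The next question was whether a place seen at one temperature at S1 was seen at the same temperature at S2. Over the 4 lists together there were 14563 places, and 12998 of them (89.3%) had peaks in 1 list only. Peaks of both 26°C lists and neither 20°C list were found at 370 places, and peaks of both 20°C lists and neither 26°C list at 72. With 1793 peaks in each of the 4 lists, the numbers were 76 and 47. In all 4 lists 178 places were found, with a median span of 14195 bp. Of the 5001 places of 26°C only at S1, 417 had a peak of S2 at 26°C alone, 120 of S2 at 20°C alone and 113 of both. Of the 4017 places of 20°C only at S1, 95 had a peak of S2 at 20°C alone, 210 of S2 at 26°C alone and 63 of both. Places of 26°C only at S1 thus met the 26°C list of S2 more often than the 20°C list, and so did places of 20°C only. Read per base and against the length of each list, the places of 26°C only at S1 had 9.81 times the chromosome share of the S2 list at 26°C and 7.57 times that at 20°C. For places of 20°C only at S1 these ratios were 3.58 and 3.40. In the other direction, places of 26°C only at S2 had 11.1 times the chromosome share of the S1 list at 26°C and 6.25 times that at 20°C, whereas places of 20°C only at S2 had 5.51 and 2.96 times. No class of 20°C only was closer to the other list of its own temperature than to the 26°C list of the other stage.

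Whole lists were compared by their bases. The marked bases shared by both lists, as a percent of the bases in either, were 22.7% for the pair of 26°C lists, 20.8% for both temperatures at S2, 16.9% for S1 at 26°C and S2 at 20°C, 14.1% for the pair of 20°C lists and 13.4% for both temperatures at S1. The lists of S1 at 20°C and S2 at 26°C, which were both collected 17 days after pollination, shared 15.8%, and 181 of the 14563 places had peaks in these 2 lists alone.

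The lists of S3 and S4 and those of H3ac (acetylated histone H3, a mark of active chromatin) took no part in the choice of places and show how often each class recurs. Of the shared places of S1, 51.5% had an H3K27me3 peak at S3 at 26°C and 30.1% at S3 at 20°C. The places of 20°C only at S1 reached 9.24% and 3.49%, and those of 26°C only 10.4% and 4.14%. The S3 list of 26°C covers 1.67% of the chromosomes and that of 20°C 0.765%. Per base and relative to these shares, places of 20°C only at S1 stood at 3.35 times for S3 at 26°C and 4.14 times for S3 at 20°C, and places of 26°C only at 5.70 and 5.16 times. The places of one temperature at S1 therefore differed little in which temperature they met at S3. At S2 the classes were less alike. Of the places of 20°C only at S2, 31.2% had a peak at S3 at 26°C, 19.2% at S3 at 20°C and 33.0% at S4 at 26°C, against 10.5%, 3.28% and 7.08% of the places of 26°C only at S2. H3ac separated them further. The bases of the places of 20°C only at S2 had 32.2 times the chromosome share of the H3ac list of S2 at 20°C, and those of 26°C only at S2 had 1.62 times. For the H3ac list of S2 at 26°C the ratios were 27.03 and 0.68, the latter below the chromosome share. The shared places of S2 stood higher still, at 45.7 times for H3ac of S2 at 20°C and 52.9 times for that at 26°C. Part of these bases lay in places with a peak in all 12 lists, such as an array of rRNA genes of 140 kb described below. There were 28 such places among those with a peak in all 4 lists, and their part of the H3ac overlap was not counted. In the H3ac lists, 41.0% to 66.7% of the peaks had a q-value of at most 0.05. Counted as places, 7.58% to 13.0% of those of 20°C only had a peak in each H3ac list, against 0.487% to 3.14% of those of 26°C only. For the shared places of S2 the range was 18.7% to 29.3%. The places of 20°C only at S2 thus met later lists of both temperatures more often than those of 26°C only did, and the H3ac overlap lay in a minority of them.

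**Figure D3:**
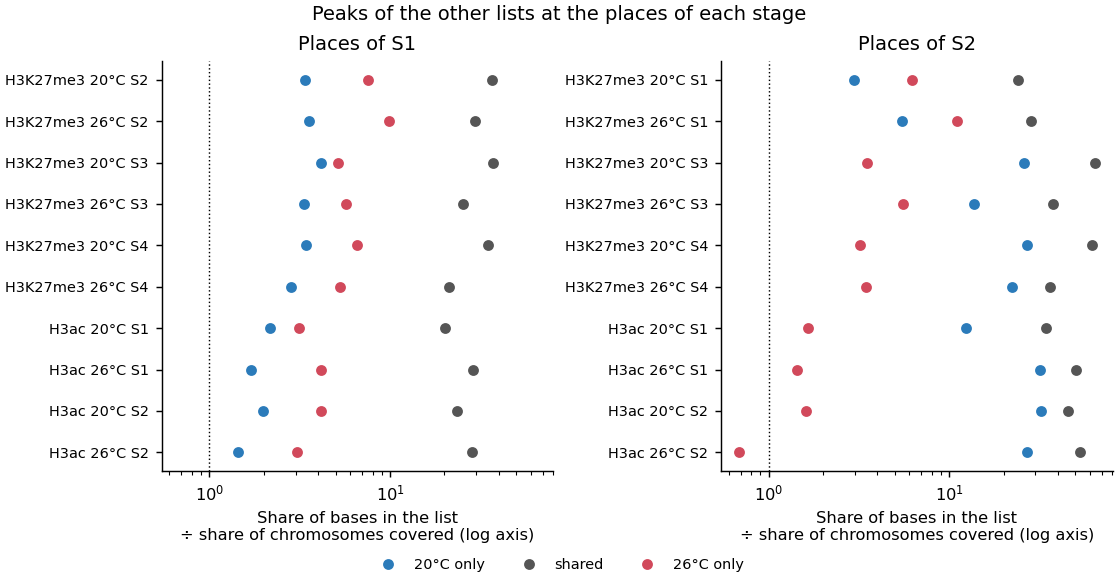
The points give, for the places of S1 (left) and S2 (right), the share of their marked bases under the peaks of another list, divided by the share of the chromosomes which that list covers (log axis), for places of 20°C only (blue), shared places (grey) and places of 26°C only (red). The dotted line marks 1, and the places of 20°C only lie below those of 26°C only at S1 and, for S3, S4 and H3ac, above them at S2.

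The genes around the places differed in the same way. Protein-coding genes span 30.5% of the chromosomes. They held 29.3% of the bases of the places of 20°C only at S1, 25.6% of those of 26°C only at S1 and 27.8% of those of 26°C only at S2, but 9.97% of those of 20°C only at S2. In the shared places they held 18.4% at S1 and 11.0% at S2. Correspondingly, 36.1% of the places of 20°C only and 36.8% of those of 26°C only overlapped a protein-coding gene at S1, and 12.2% and 36.4% at S2. Of the 428 bins of 1 Mb, 13.1% held under 40 protein-coding genes, and such gene-poor bins held 15.1% and 14.8% of the places of 20°C only and of 26°C only at S1. At S2 they held 39.1% of the places of 20°C only, 15.0% of those of 26°C only and 40.8% of the shared ones. The 8 chromosomes were alike at S1, with 1.10 (chromosome 2) to 1.34 (chromosome 6) places of 26°C only for each one of 20°C only. At S2 this number ran from 2.84 on chromosome 7 to 4.46 on chromosome 8, above 1 on each chromosome.

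**Figure D4:**
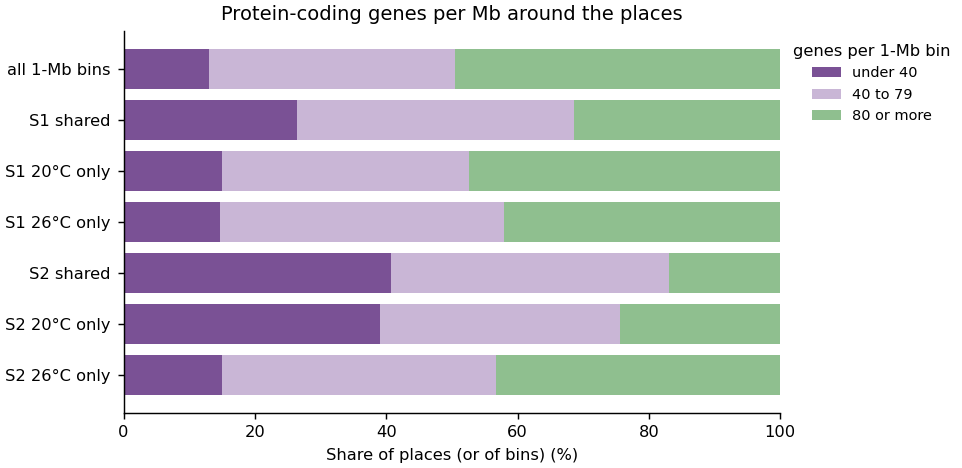
The bars divide the places of each stage and class by the number of protein-coding genes in their 1-Mb bin (under 40, 40 to 79, 80 or more), in percent, with all 428 bins on top. Gene-poor bins hold 39.1% of the places of 20°C only at S2 and 15.0% of those of 26°C only.

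Of the 31728 protein-coding genes of the RefSeq annotation of this assembly, a peak in the gene was found at both temperatures for 307 at S1 (0.968%), at 20°C only for 1416 (4.46%) and at 26°C only for 1732 (5.46%). At S2 the numbers were 122 (0.385%), 119 (0.375%) and 1739 (5.48%). Over all 39280 annotated genes, 1626 (4.14%) had a peak at 20°C only and 2114 (5.38%) at 26°C only at S1, and 456 (1.16%) and 1991 (5.07%) at S2. Both temperatures had a peak in 486 genes (1.24%) at S1 and in 446 (1.14%) at S2. The number of genes with a peak at 26°C only was thus nearly the same at both stages, and it was the 20°C side that was smaller at S2. Genes with a peak at 26°C at both stages and at 20°C at neither numbered 255 (0.804%), and the reverse was found for 7 (0.0221%). All 4 lists had a peak in 63 genes (0.199%). Genes with a peak in a single list were longer than average, with a median of 3716 to 5097 bp against 3203 bp for all protein-coding genes, and a longer gene offers more room for a peak. Of the 255 genes of 26°C only, 55 (21.6%) had a peak at S3 or S4, with 45 at S3 at 26°C and 6 at S3 at 20°C. Of all protein-coding genes 7.03% had one, with 1642 at S3 at 26°C and 164 at S3 at 20°C. Genes of other pairs of lists did not stand lower as a whole. The share was 20.1% for S1 at 20°C with S2 at 26°C, 17.4% for both temperatures at S1 and 28.6% for the 7 genes of 20°C only. It was 69.6% for S2 at 20°C with either 26°C list. The recurrence was thus not particular to the genes of 26°C only. In the 3 kb on either side, 1930 of the 31728 protein-coding genes had a peak at 20°C only at S1 and 2081 at 26°C only. At S2 the numbers were 238 and 2225. Such stretches outside protein-coding genes make up 30.1% of the chromosomes. They held 26.1% of the bases of places of 20°C only at S1 and 22.3% of those of 26°C only. At S2 they held 8.87% and 24.9%, so that each class lay below the chromosome share.

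The annotation used here gives most genes a LOC number and no product, so that genes are named by position and enrichment, and families of genes could not be counted. Of the 10 protein-coding genes with another symbol, none had a peak in any of the 12 lists. They include the leghemoglobins LB1 and LB6, which bind oxygen in root nodules, CCAMK and IPD3 of the symbiotic signalling pathway, and the early nodulin ENOD11. Over the 4 lists together, 4822 of the 31728 protein-coding genes had a peak and 26906 had none, so that absence was the usual case. The share over all 12 lists was not counted.

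Among the genes with a peak at 26°C at both stages and none at 20°C, LOC11416488 on chromosome 4 (48455316 to 48456903) came first when ranked by the lower of its 2 values. Its fold enrichment was 12.1 at S1 and 9.14 at S2. It kept a peak at 26°C at S3 (2.90) and S4 (3.63) and had one at 20°C at S3 (2.49). LOC25496259 on chromosome 6 (14986544 to 14987152) had 8.63 and 9.99, and was covered over its whole 609 bp at S1. It had a peak at S3 (3.82) and S4 (2.58) at 26°C and none at 20°C at any stage. The broadest mark among these genes was that of LOC25480879 on chromosome 3 (16921371 to 16948217), where 13424 bp at S1 and 13454 bp at S2 were marked, and the values were 8.25 and 8.49. Its peaks at S3 and S4 were found at both temperatures, with 2.37 at 20°C and 3.11 at 26°C at S3. LOC25491068 on chromosome 3 (31055565 to 31060926), LOC25483282 and LOC11420802 on chromosome 1 (20472919 to 20476546 and 35897005 to 35907496), and LOC11444178 on chromosome 4 (62679049 to 62681830) had 7.57 to 11.0 in the lists of 26°C and no H3K27me3 peak at S3 or S4. LOC11405834 on chromosome 5 (14067759 to 14069201) had 7.66 at S1 and 7.51 at S2, and at later stages a peak at S3 at 26°C alone (3.30). The absence from the 20°C lists thus held at S3 and S4 for LOC25496259 and LOC11405834, beside later peaks at 26°C. It ended at S3 for LOC11416488 and LOC25480879. The genes without any peak at S3 or S4 were absent from the later 20°C lists as well.

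The 7 genes with the opposite pattern had lower values. The median of their lowest fold enrichment was 2.65, against 3.66 for all 255 genes of 26°C only at both stages. The genes named above are the highest of those 255. The list of S2 at 20°C also had a lower median over all its peaks, 2.56 against 3.90 at 26°C. Ranked by the lower of its 2 values, LOC120578163 on chromosome 1 (23392138 to 23397636) came first, with 4.23 at S1, where its whole 5499 bp were marked, and 3.32 at S2, where 276 bp were. LOC25497376 on chromosome 6 (40582794 to 40597837) had 3.25 and 2.86, and at S3 a peak at both temperatures (3.17 at 20°C and 4.19 at 26°C). LOC25481612, also on chromosome 6 (11846342 to 11855329), had 3.19 and 2.65 and carried H3ac peaks in all 4 lists of that mark. The other 4 genes had 3.71 to 4.29 at S1 and 2.45 to 3.01 at S2.

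Genes marked in a single list were ranked by that value, and their absence from the other lists is what chose them. At S1 at 20°C, a peak of 9683 bp and 19.5-fold enrichment lay over LOC25493109 on chromosome 4 (43043408 to 43053884) and over LOC25493110 (43049619 to 43050655), which overlaps it. LOC11437836 on chromosome 7 (9456555 to 9475653) had 15.2 and LOC11441339 on chromosome 2 (7421149 to 7422207) 14.2. Of these, LOC25493109 alone had an H3K27me3 peak at a later stage (2.96 at S3 at 26°C). At S1 at 26°C, LOC11436686 on chromosome 5 (29159596 to 29160867) had 26.1 under a peak of 488 bp, LOC25484465 on chromosome 1 (37868427 to 37870138) 14.2 and LOC11433036 on chromosome 3 (53739032 to 53741962) 13.0. LOC11414235 on chromosome 1 (5812676 to 5815296) had 22.4, but 237 bp of it were covered, by the end of a domain described below that was present in all 4 lists. At S2 at 20°C the highest value was 6.04, for LOC25484837 on chromosome 1 (44618753 to 44619729), and the next was 3.62, for LOC25493428 on chromosome 4 (46695509 to 46713404). At S2 at 26°C it was 25.2 for LOC11423131 on chromosome 1 (36200335 to 36205644), of which 27 bp were covered, followed by 14.4 for LOC112421269 on the same chromosome (40128842 to 40138394).

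The places with a peak in all 4 lists allow the temperatures to be compared by the strength of the mark. Of these 178 places, 89 had a higher fold enrichment at 26°C at S1 and 149 at S2. A group of 16 places stood out by a fold enrichment at least 2 times higher at 26°C at both stages, and 0 places were at least 2 times lower at both. The values of S2 at 20°C were low throughout, with a median of 2.94 over the 178 places against 4.34 at 26°C. This left little room for a place 2 times lower at 26°C at S2, so the 0 carries little weight. A place on chromosome 6 (9215622 to 9230262), for example, had 24.1 at 20°C and 7.60 at 26°C at S1, but 2.41 and 6.35 at S2. The limit of 2 was set after the values were seen, and the lower of the stage ratios was 2.05 for the last place inside it and 1.96 for the first outside. In these 16 places the median fold enrichment was 4.20 at S1 at 20°C and 26.5 at S1 at 26°C, and 6.87 at S2 at 20°C and 28.3 at S2 at 26°C. In the other 162 places the medians were 3.95, 3.86, 2.89 and 4.16 in the same order. The 16 places lay on all 8 chromosomes, 14 of them spanned over 10 kb (median 15.6 kb), and 11 consisted of a single peak in each list. Of the other 162, 113 spanned over 10 kb (median 13.7 kb) and 81 were a single peak in each list. The marked stretch was longer at 26°C in 15 of the 16 at S1 and in 14 at S2, against 85 and 101 of the other 162.

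The highest fold enrichment of both 26°C lists was in a place of this group on chromosome 4 (4104326 to 4120151), which contains the gene LOC25491440 (4116645 to 4117554). It was 9.50 at 20°C and 61.7 at 26°C at S1, and 12.1 and 61.5 at S2. A place on chromosome 5 (12935983 to 12953228) over LOC11409848 (12938157 to 12942291) and LOC11408546 (12944341 to 12954633) had 10.2 at 20°C and 45.5 at 26°C at S1, and 16.5 and 46.3 at S2. A further place on that chromosome (19042381 to 19058084) overlaps no annotated gene and had 9.52 and 41.8 at S1, and 11.5 and 30.2 at S2. On chromosome 3, LOC25488847 (14086683 to 14093254) was marked with 5.23 and 29.0 at S1 and 8.02 and 29.1 at S2. The largest ratio at S1 was that of a place on chromosome 1 (18531156 to 18546709) over LOC25483138, with 4.76 at 20°C and 32.4 at 26°C, and 6.60 and 28.3 at S2. Another on chromosome 1 (5800328 to 5812912), over LOC11414526 and the end of LOC11414235, had 3.55 and 22.4 at S1 and 7.13 and 30.1 at S2. The 20°C value was higher at S2 than at S1 in 14 of the 16 places and the 26°C value in 8, against 35 and 98 of the other 162.

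The later stages, which were not used to choose these 16 places, differed between the temperatures too. At S3, 16 of the 16 had a peak at 26°C, with a median fold enrichment of 6.32, and 3 had one at 20°C. At S4, 11 had a peak at 26°C (median 2.73) and 3 at 20°C (median 2.36). In the other 162 places, 149 had a peak at S3 at 26°C and 115 at S3 at 20°C, and 125 and 107 at S4. H3ac peaks were found in 2 of the 16 places, in both cases in the list of S1 at 20°C, and in 86 of the other 162. Of those 162 places, 54 had a peak in 10 or more of the 12 lists, and of the 16 places 0 had, with 8 lists as the most. As the members of this group were picked for their enrichment at 26°C, these numbers are a description, and no test was made.

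**Figure D5:**
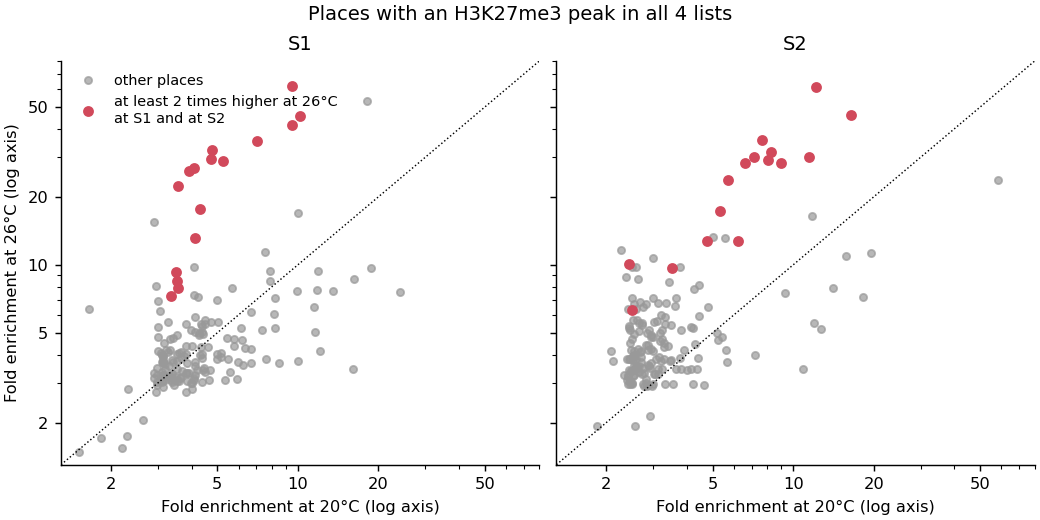
Each point is 1 of the 178 places with a peak in all 4 lists, with its highest fold enrichment at 20°C (x axis) and 26°C (y axis, both log axes) at S1 (left) and S2 (right); the dotted line marks equal values. The 16 places in red lie above the line at both stages, between 7.29 and 61.7 at 26°C at S1.

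Other genes marked in all 4 lists lie outside this group. LOC11421359 and LOC11421360 lie side by side on chromosome 7 (53168625 to 53172495 and 53175844 to 53177223) and share their peaks, which had values of 5.44 at 20°C and 4.72 at 26°C at S1, and 5.17 and 4.97 at S2. They kept a peak at S3 and S4 at both temperatures, with 5.97 to 7.29. LOC120579358 and LOC120579359 on chromosome 3 (31820494 to 31822785 and 31828308 to 31830878) shared peaks of 7.53 and 11.4 at S1 and 5.02 and 13.3 at S2. The naming of genes left out 23 of the 63 protein-coding genes of this pattern, because they lie in places with a peak in 10 or more of the 12 lists.

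The 3 longest shared places of each stage overlapped no protein-coding gene. One of them, on chromosome 1 (22839426 to 22896750 at S1), holds the lncRNA gene LOC120580935. At S1 the longest was on chromosome 6 (20355277 to 20418302), where a single peak of 20°C met 7 peaks of 26°C. At S2 the longest was further along the same chromosome (20570151 to 20710585), with 457 rRNA genes, which code for the RNA of the ribosome. A single peak covered all of its 140 kb at 20°C at S2, and 7 peaks covered 42.8% of it at 26°C. At S1, 10 peaks covered 21.1% at 20°C and 10 peaks covered 40.3% at 26°C. At S3 and S4, 96.4% to 100% of it was covered at both temperatures. The H3ac lists covered 68.8% to 99.1% of it, so that it had a peak in all 12 lists. As only reads with 1 place in the genome were mapped, peaks in copies that are nearly identical are uncertain. Over all chromosomes, 295 rRNA genes counted as marked at 20°C only at S2, 283 of them on chromosome 6, and all 295 lay inside shared places. Another 8, on chromosomes 4 and 5, counted as 26°C only. At S1, 46 rRNA genes counted as 20°C only and 160 as 26°C only, of which 26 and 135 lay inside shared places. On chromosome 4 a shared place without annotated genes (19616343 to 19673310 at S1) reached 18.2 at 20°C and 53.1 at 26°C at S1. At S2 its values were 58.2 at 20°C and 23.8 at 26°C, so that the higher temperature changed sides, and it had a peak in all 12 lists.

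The longest places of one temperature only reached 27.7 kb. That of 20°C only at S1 lay on chromosome 3 (40151265 to 40178714) over 6 protein-coding genes (fold enrichment 4.40), and 2 of the 12 lists had a peak there. Those of 26°C only lay on chromosome 3 at S1 (5921422 to 5947358, 4.30) and on chromosome 2 at S2 (24576626 to 24604370, 4.05), and neither overlaps an annotated gene. The former had a peak in 9 of the 12 lists. The place on chromosome 2 was also among the longest of 26°C only at S1 (24581871 to 24605988, 5.42), and 6 of the 12 lists had a peak in it. At S2 the longest place of 20°C only, on chromosome 2 (19147889 to 19164335), had a fold enrichment of 3.24, and 4 of the 12 lists had a peak there.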

How the data were processed

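Chromatin immunoprecipitation and sequencing (ChIP-seq) had been done with 24 libraries, of which the 4 H3K27me3 IP libraries of S1 and S2 were compared here. The authors trimmed the reads and used STAR for mapping on the assembly MtrunA17r5.0, where reads with 1 place were kept. Duplicates were flagged by Picard and removed. For H3K27me3, macs2 was run on each IP library with its own INPUT, in paired-end and broad mode at a p-value threshold of 0.01. The H3ac lists hold narrow peaks, so the marks were not called alike. Versions of these tools are not given in the sources used here. The deposited lists give for each peak a position, the fold enrichment as a ratio over INPUT, p-value and q-value as −log10, and a score that was not used. In broad lists these are averages over the peak. A deeper library or another background changes how many peaks pass. From the lists, places were built as connected groups of overlapping peaks, in Python 3.11.15 with pandas 2.3.3 and NumPy 2.4.6. Intervals came from SciPy 1.17.1 and plots from matplotlib 3.10.9. The counts of 10 overlaps were checked against bedtools 2.31.1 and 10 were equal. The last peak or gene on a chromosome set its length. Genes were those of RefSeq for the same assembly, without strand or product, so the gene groups and the promoter motifs that had been planned could not be counted. Genes to be named were protein-coding, outside places with a peak in 10 or more of the 12 lists, and ranked within a pattern by their lowest fold enrichment, or by the highest for a single list. Members and lists were chosen with earlier results of these data known. The alternatives were stricter limits for the p-value, the fold enrichment or the q-value, equal numbers of peaks, other overlaps, joining within 1 kb, the removal of places found in most lists and, for genes, an overlap of 200 bp or all annotated genes. Peaks of at least 1 kb alone were added after the data were seen.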

Additional observations from a re-analysis of the deposited data

Results flagged for a closer look

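The number of rRNA genes with a peak moved in opposite directions at the 2 stages, with a log2 ratio of 26°C to 20°C of 0.80 at S1 (155 genes at 20°C and 269 at 26°C) and −1.09 at S2 (542 and 255). Most of these genes lay in the single place of 140 kb on chromosome 6 described above. It held 105 and 190 of them at S1, and 457 and 198 at S2, where 1 peak of 20°C spanned it. The counts therefore stand largely for 1 locus and not for separate genes. For tRNA genes the signs at S1 and S2 were the reverse of those for rRNA genes, at −0.36 (18 and 14 genes) and 1.95 (7 and 27). For snoRNA genes the values were −0.038 (38 and 37, a difference of 1 gene) and 0.82 (21 and 37). Over all annotated genes the log2 ratio was 0.30 at S1 and 1.43 at S2. With 1 library per condition the difference between the stages was not tested, and copies of these genes can share reads. Outside chromosomes 1 to 8, which the comparison did not use, the lists held 106 peaks for S1 at 20°C, 78 for S1 at 26°C, 102 for S2 at 20°C and 87 for S2 at 26°C, of which 51, 35, 48 and 17 lay in the mitochondrial genome.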

How the results depend on the processing

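The temperatures were compared within each stage, with 1 library per condition. The labels give every library the same replicate number, and no result comes from a test. In each list of values that follows, the order is the percent of shared places at S1 and S2, the log2 ratio of places of 26°C only to 20°C only at S1 and S2, and the numbers of places of 26°C only and of 20°C only at both stages, which were 5.84%, 7.14%, 0.32, 1.88, 370 and 72 as reported. At a −log10 p of at least 5 they were 4.10%, 4.48%, 0.92, 2.75, 148 and 8. At a fold enrichment of at least 3 they were 5.42%, 2.61%, 0.15, 4.86, 370 and 12. With lists of equal length they were 5.71%, 5.30%, 0.013, 0.015, 76 and 47. With peaks of at least 1 kb only, chosen after the data were seen, they were 11.4%, 15.3%, 0.37, 1.21, 151 and 25. An overlap of at least 200 bp gave 5.11% shared places at S1 and an overlap of at least 0.5 of the shorter peak 5.12% and 6.51%. Joining peaks within 1 kb gave 7.22% and 8.18%, and leaving out places with a peak in 10 or more of the 12 lists 5.16% and 5.96%. At a q-value of at most 0.05 the log2 ratio at S2 was 2.04. Over all annotated genes, 24 had peaks at 20°C only at both stages, against 7 protein-coding ones. Lists of equal length fix the log2 ratio near 0, so that the excess of places of 26°C only is not seen there.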
